A study of Homo sapiens with 4 samples.

Results

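The S100 calcium-binding protein family was followed across 4 RNA-sequencing libraries of NCI-H1048. The members were taken by gene symbol: S100A2, S100A4, S100A6, S100A8, S100A9, S100A10, S100A11, S100A14, S100A16 and S100P, which are 10 of the 35979 symbols in the tables. NCI-H1048 is an established line of human small cell lung cancer, and the title of the study places it in the tuft cell-like subtype. All cells were of this line and each library followed 1 guide RNA (gRNA). The non-targeting group and the POU2F3 gRNA group (genotype given as POU2F3 knockout) held 1 library each, and the COLCA2 gRNA group (genotype given as COLCA2 knockout) held 2 libraries made with different guides. POU2F3 is the transcription factor that defines tuft cells, and COLCA2 is a coactivator of it. No treatment is given. The positions of the guides, the time after their delivery, and whether the cells were a pool or a clone are not given in the sources used here.

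S100 proteins carry a pair of EF-hand loops, mostly work as dimers and bind partner proteins once calcium is bound. Some act only inside the cell, on the cytoskeleton, on annexins or at the membrane, and others are also released and act on receptors such as the one encoded by AGER. In airway and other surface epithelia several of them are genes of basal, squamous or injured epithelium, and S100A8 and S100A9 are also abundant in neutrophils and monocytes. Of the members, 9 lie in 1 cluster on chromosome 1 and S100P lies alone on chromosome 4.

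The genome around the starts of these genes was read from RefSeq (GRCh38.p14), which gave 14 start sites for the 10 members. The 250 bases before each start were searched on both strands for 4 motifs: the octamer ATGCAAAT that POU factors such as POU2F3 are known to bind, the AP-1 motif TGANTCA, the TEAD motif GGAATG and the core TATA box TATAAA. The octamer was in 0 of the 14 windows, beside 1.63% of 35116 windows of all genes. The TATA letters were in 5 windows of 4 members (S100A4, S100A8, S100A9 and S100P), beside 10.7% of all windows, and 2 of those 5 were overlapping windows of S100A8 that held the same match. Counted back from the start, each match began between -31 and -28, except for -126 in the window of the more internal S100A8 start. The stretches of 30 bases around them are shown, since these 4 genes include both subunits of calprotectin, with TATAAA in capitals, at chr1:153357813-153357842 (plus strand) for S100A9, chr1:153391085-153391114 (minus) for S100A8, chr1:153545820-153545849 (minus) for S100A4 and chr4:6693838-6693867 (plus) for S100P.
S100A9: tcaggagctgccTATAAAtgccgagcctgc
S100A8: aagcctaaccgcTATAAAaaggagctgcct
S100A4: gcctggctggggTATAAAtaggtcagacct
S100P: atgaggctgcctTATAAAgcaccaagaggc

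The AP-1 letters were in 1 window, that of the upstream S100A2 start, at -52 (6.57% of all windows), and the TEAD letters in 1 window of S100A16, at -247 (11.9% of all windows). The whole window of S100A9 (chr1:153357604-153357853, plus strand) and the part of the S100A2 window outside exons (chr1:153565866-153566094, minus strand) are given, with the TATA letters and the AP-1 letters in capitals, because these genes were among the first 4 members per kilobase in every library.
S100A9: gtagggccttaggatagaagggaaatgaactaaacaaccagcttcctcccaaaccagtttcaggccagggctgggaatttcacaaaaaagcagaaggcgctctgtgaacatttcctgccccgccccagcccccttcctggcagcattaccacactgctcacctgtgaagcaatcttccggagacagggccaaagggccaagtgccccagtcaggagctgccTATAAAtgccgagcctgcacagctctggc
S100A2: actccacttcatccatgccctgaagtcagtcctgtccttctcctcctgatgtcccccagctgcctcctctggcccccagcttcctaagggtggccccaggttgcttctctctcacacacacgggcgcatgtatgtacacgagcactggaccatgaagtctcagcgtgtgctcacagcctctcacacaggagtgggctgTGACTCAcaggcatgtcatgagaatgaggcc

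These matches describe letters only. All 250 bases of the windows of S100A10, S100A6, S100P and the more internal S100A2 start lay in exons annotated in GENCODE release 29. The TATA letters of S100P therefore lay in annotated exon sequence. So did those of S100A8, where 115 bases of the window with the match at -29 overlapped exons. In the S100A4 window 79 bases overlapped exons, and in that of S100A9 0 did. G and C made up 71.2% of the S100A10 window, 70.0% of that of S100A6, 55.6% of those of S100A9 and S100P and 59.2% of that of the upstream S100A2 start, beside a median of 58% over all windows. The windows of the members thus differed in composition. None of the 4 motifs was found in all members, and TATAAA was in 4 of the 10. The part of these motifs in the levels described next was not tested.

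The libraries held 21587741 to 29632382 reads assigned to genes. The normalized count of POU2F3 itself was 14602 without a targeting guide, 1449 in the POU2F3 gRNA library, and 3677 and 2351 with the first and second COLCA2 guide. COLCA2 had 5585, 1393, 3119 and 3541 in the same order. Both targeted genes were thus lowest in the library of the POU2F3 guide, and COLCA2 transcripts remained with the COLCA2 guides; a read count does not show whether a guide cut its gene. Tuft markers were present in the non-targeting library (AVIL 5093, GFI1B 1899, KIT 3084), while TRPM5, CHAT and PTGS1 stayed below the expression minimum. The neuroendocrine factor NEUROD1 had at most 11 reads in any library. In these bulk libraries a difference in level can come from the share of cells that express a gene or from the amount per cell, which cannot be told apart.

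Transcripts of the S100 members were scarce in the non-targeting library and more abundant in all 3 others. The 10 members summed to 214 reads there, or 8.41 RPM (reads scaled by the library's total; 95% exact interval 7.32 to 9.62). The sum was 1784 reads with the POU2F3 gRNA (60.2 RPM, 57.4 to 63.1), 3161 with COLCA2 gRNA 1 (128 RPM, 124 to 133) and 3188 with COLCA2 gRNA 2 (148 RPM, 143 to 153). None of these intervals overlapped. They cover counting error alone, as copies made in PCR cannot be told from separate molecules here, and they say nothing about the spread between cultures, which 1 library a group cannot show. In all 10 members the lowest value was in the non-targeting library, followed by the POU2F3 gRNA library, COLCA2 gRNA 1 and COLCA2 gRNA 2. All ratios to the non-targeting gRNA rest on that 1 library and share it. An SD over the COLCA2 guides therefore leaves out the counting error of that library.

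**Figure D1:**
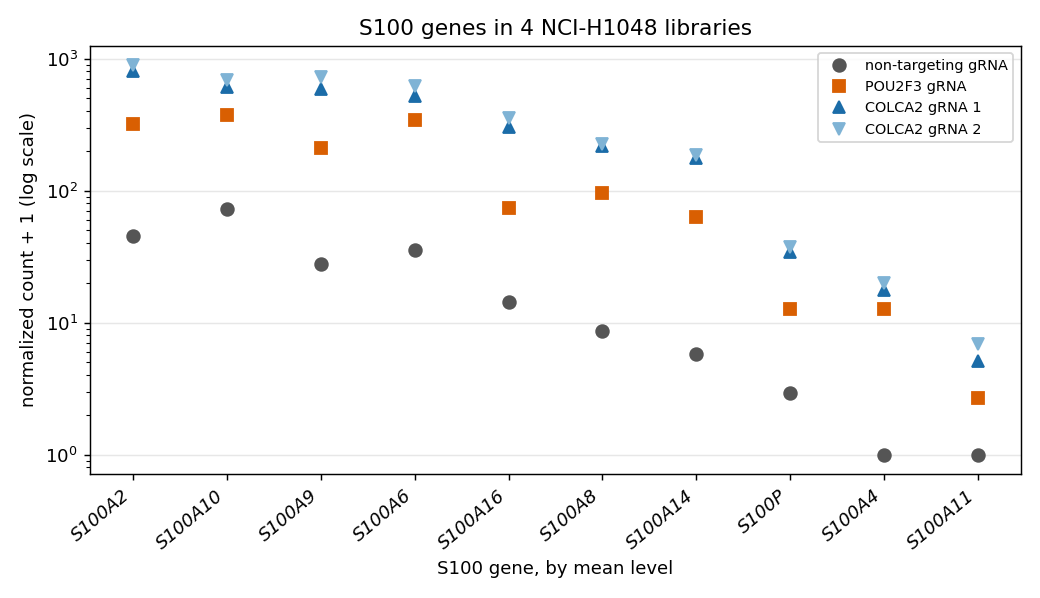
Normalized counts plus 1 (log scale) of the 10 S100 genes in the 4 libraries, 1 point per library, with genes ordered by their mean. In every gene the non-targeting point is lowest, the POU2F3 gRNA point is next and the points of both COLCA2 guides lie closest together.

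Of the 10 members, 8 had a mean normalized count of at least 20 over the 4 libraries and were compared as part of the 14940 genes that did so. S100P was just inside this minimum with a mean of 20.8, and S100A4 (11.8) and S100A11 (2.93) were outside it. S100A8, S100A14, S100A16 and S100P were under 20 in the non-targeting library and passed only through the other libraries, where they were high. Their calls, counts and p-values below are therefore a description. All members were chosen with earlier results of these data known. Relative to the non-targeting library, 8 of the 8 were at least 2-fold higher with the POU2F3 gRNA (6.73% of all genes) and 0 were at least 2-fold lower (3.05% of all genes). With both COLCA2 guides, 8 of 8 were at least 2-fold higher (5.79% of all genes) and 0 lower (2.02%). Over the 8, the median log2 ratio was 2.88 with the POU2F3 gRNA, where that of all genes was -0.0037, and 4.38 with the COLCA2 guides, where that of all genes was -0.0086. With the other members at their lower bounds, the medians were 2.82 over 9 members and 4.12 over 10. These calls are by size, without a test. In edgeR's quasi-likelihood test of the recovered reads, with its spread taken from the COLCA2 pair, 7 of the 8 were higher with the POU2F3 gRNA (8.45% of all genes) and 8 with the COLCA2 guides (11.4% of all genes). DESeq2 called 7 and 7, and S100P was the member it left out each time (adjusted p = 0.586 and 0.0728).

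**Figure D2:**
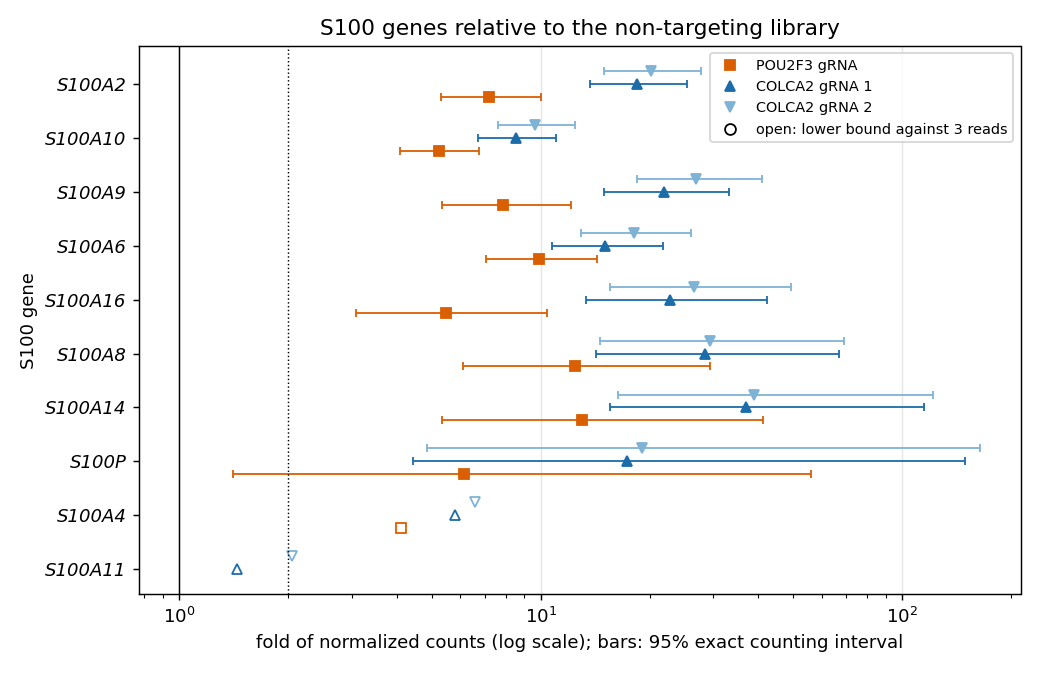
Fold of the normalized count over the non-targeting library (log scale) for each S100 gene, with 95% exact counting intervals; open symbols are lower bounds against 3 reads, and the dotted line is 2-fold. The folds with the COLCA2 guides lie above the fold with the POU2F3 gRNA in each gene drawn with an interval, from 5.23 for S100A10 with the POU2F3 gRNA to 38.9 for S100A14 with COLCA2 gRNA 2.

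S100A8 and S100A9 encode the subunits of calprotectin, a secreted heterodimer that binds zinc and manganese and is made by neutrophils and by inflamed or stratified epithelium. S100A9 (ENSG00000163220, chr1:153357854-153361027, plus strand) stood at a normalized count of 26.7 (28 reads) in the non-targeting library, 211 with the POU2F3 gRNA, and 585 and 720 with the COLCA2 guides. The COLCA2 libraries were highest and close to each other. The fold over the non-targeting library was 7.88 (95% counting interval 5.32 to 12.1) with the POU2F3 gRNA, 21.9 (15.0 to 33.2) with COLCA2 gRNA 1 and 26.9 (18.4 to 40.9) with COLCA2 gRNA 2. The log2 ratio with COLCA2 was 4.55 ± 0.21 (SD, n = 2 guides; edgeR adjusted p = 0.000105), and with POU2F3 it was 2.93 (edgeR adjusted p = 0.00111). S100A8 (ENSG00000143546, chr1:153390032-153391188, minus strand) had 7.64 (8 reads), 94.8, 218 and 225 in the same order. Its folds were 12.4 (6.09 to 29.5), 28.5 (14.2 to 66.9) and 29.4 (14.6 to 69.1), with adjusted p-values from edgeR of 0.00225 for POU2F3 and 0.000361 for COLCA2. The partners were not equally abundant: per kilobase of the longest transcript, S100A9 exceeded S100A8 by 2.76 times (2.20 to 3.48) with the POU2F3 gRNA, and 3.34 (2.84 to 3.93) and 3.98 times (3.38 to 4.71) with the COLCA2 guides. The ratio in the non-targeting library, 4.35, had an interval of 1.93 to 11.04 that held all the others. This pair ratio was chosen after the values had been seen.

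Because neutrophils and monocytes are rich in calprotectin, myeloid markers were read beside it. Of 7 (PTPRC, CD14, ITGAM, LYZ, CSF1R, MPO and TYROBP), 1 passed the minimum, LYZ, which was 72.6 in the non-targeting library and 45.6 to 61.3 in the others. MPO and TYROBP were listed at 0 in all 4 libraries, and PTPRC was at most 16.2. The summed level of the list was 97.4 in the non-targeting library, 98.2 with the POU2F3 gRNA, and 117 and 83.5 with the COLCA2 guides. ITGAM was at 0 in the non-targeting library and between 13.4 and 33.2 in the others, and CSF1R reached 23.8 with COLCA2 gRNA 1 alone among the 4.

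S100A10, also known as p11, is the light chain of the annexin A2 heterotetramer, which sits under the plasma membrane, binds plasminogen and tissue plasminogen activator, and helps to carry ion channels to the surface. It had the highest count of the members in the non-targeting library. S100A10 (ENSG00000197747, chr1:151982915-151994390, minus strand) stood at 71.6 normalized counts (75 reads) in the non-targeting library, 374 with the POU2F3 gRNA, and 612 and 693 with the COLCA2 guides. Its folds were 5.23 (4.08 to 6.77) with the POU2F3 gRNA, 8.54 (6.71 to 11.01) with COLCA2 gRNA 1 and 9.67 (7.60 to 12.5) with COLCA2 gRNA 2. In edgeR the adjusted p was 0.000821 for POU2F3 and 0.00015 for COLCA2. ANXA2, its partner, counted 9353 in the non-targeting library, 31365 with the POU2F3 gRNA, and 34823 and 37577 with the COLCA2 guides, log2 ratios of 1.75, 1.90 and 2.01 (edgeR adjusted p = 0.000147 and 5.1e-05). S100A10 therefore differed by more than its partner: per kilobase, ANXA2 exceeded S100A10 by 44.5 times (35.5 to 56.6) in the non-targeting library, 28.5 times (26.0 to 31.4) with the POU2F3 gRNA, and 19.4 (17.9 to 21.1) and 18.5 times (17.0 to 20.1) with the COLCA2 guides. AHNAK, the giant scaffold protein that binds this complex, had 877, 5325, 5692 and 6126, a log2 ratio of 2.60 with the POU2F3 gRNA and of 2.70 and 2.80 with the COLCA2 guides.

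S100A6, or calcyclin, binds annexins and the CACYBP and SUGT1 proteins and is common in dividing cells. S100A6 (ENSG00000197956, chr1:153534599-153536244, minus strand) counted 34.4 normalized (36 reads) in the non-targeting library, 341 with the POU2F3 gRNA, and 518 and 622 with the COLCA2 guides. The POU2F3 gRNA library came nearer to the COLCA2 libraries in this gene than in any other of the 8. Its folds were 9.91 (7.04 to 14.4), 15.1 (10.7 to 21.8) and 18.1 (12.9 to 26.1), with edgeR adjusted p-values of 0.000495 for POU2F3 and 0.000135 for COLCA2. Of its partners, ANXA2 and ANXA6 were at least 2-fold higher in both comparisons (values with the other partners). ANXA11, another annexin of the partner list, was under 2-fold (log2 ratios of 0.26, 0.72 and 0.86). CACYBP was lower by less than 2-fold (log2 ratios of -0.55, -0.26 and -0.36) and SUGT1 had -0.041, 0.23 and 0.27. An unnamed transcript, BX470102.1, overlaps S100A6 on the other strand, and use of the strand is not given in the sources used here, so reads of the pair could not be separated.

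S100A2, a mostly nuclear protein of basal keratinocytes, had the highest normalized count of the family in both COLCA2 libraries. For S100A2 (ENSG00000196754, chr1:153561108-153567890, minus strand) it was 43.9 (46 reads) in the non-targeting library, 316 with the POU2F3 gRNA, and 810 and 888 with the COLCA2 guides. The folds were 7.20 (5.29 to 10.01), 18.4 (13.7 to 25.4) and 20.2 (15.0 to 27.9). The log2 ratio was 4.24 ± 0.094 (SD, n = 2 guides) for COLCA2 (edgeR adjusted p = 5.7e-05) and 2.82 for POU2F3 (edgeR adjusted p = 0.00042).

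S100A14 and S100A16 are neighbours at the end of the cluster and are epithelial members with incomplete or weak calcium loops. S100A14 (ENSG00000189334, chr1:153614255-153616986, minus strand) was nearly silent in the non-targeting library at 4.77 (5 reads) and reached 62.1 with the POU2F3 gRNA, and 176 and 186 with the COLCA2 guides. Its folds were 13.01 (5.33 to 41.2), 36.9 (15.5 to 115) and 38.9 (16.3 to 122), and the widths of these intervals come from the 5 reads. With COLCA2, 33 of the 14940 genes had a higher log2 ratio than the 4.98 ± 0.054 (SD, n = 2 guides) of S100A14. This SD covers the guides alone, as both ratios share the 5 reads of the non-targeting library. At a pseudocount of 10 the ratio was 3.69, so its rank is a loose description. S100A16 (ENSG00000188643, chr1:153606886-153613145, minus strand) had 13.4 (14 reads), 73.0, 305 and 355. Its folds were 5.46 (3.09 to 10.4) with the POU2F3 gRNA but 22.8 (13.4 to 42.2) and 26.6 (15.6 to 49.2) with the COLCA2 guides. In edgeR the adjusted p-values of S100A14 were 0.00455 for POU2F3 and 0.000517 for COLCA2, and those of S100A16 were 0.0075 and 0.000256.

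S100P, which binds ezrin and is often made by adenocarcinomas, and S100A4, or metastasin, which binds the heavy chain of non-muscle myosin IIA and is typical of migrating and mesenchymal cells, were scarce throughout. S100P (ENSG00000163993, chr4:6693069-6697170, plus strand) had 2 reads in the non-targeting library, 14 with the POU2F3 gRNA, and 32 and 31 with the COLCA2 guides, which are normalized counts of 1.91, 11.8, 33.2 and 36.5. Its fold was 6.15 (1.41 to 55.8) with the POU2F3 gRNA (edgeR adjusted p = 0.116) and 17.4 (4.43 to 149.6) and 19.1 (4.86 to 165) with the COLCA2 guides (edgeR adjusted p = 0.0109). S100A4 (ENSG00000196154, chr1:153543613-153550136, minus strand) had 0 reads in the non-targeting library, 14 with the POU2F3 gRNA and 16 with each COLCA2 guide. Against 3 reads, the limit that a count of 0 allows, it was at least 4.10-fold higher with the POU2F3 gRNA and at least 5.79-fold and 6.57-fold higher with the COLCA2 guides. S100A4 overlaps S100A3 on the same strand, so its few reads are uncertain.

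S100A11, an annexin A1 partner, stayed nearly absent. S100A11 (ENSG00000163191, chr1:152032506-152047907, minus strand) had 0 reads in the non-targeting library, 2 with the POU2F3 gRNA, and 4 and 5 with the COLCA2 guides. It was at least 1.45-fold and 2.05-fold higher with the COLCA2 guides, and no fold is given for the POU2F3 gRNA, where both counts were under the limit. A transcript on the other strand, AL450992.1, overlaps it. The pseudogenes S100A11P1 and S100A11P2 were at 0 in all libraries apart from a normalized count of 0.955 for S100A11P2 in the non-targeting library. ANXA1 was itself abundant: it had 64178 in the non-targeting library, 35252 with the POU2F3 gRNA, and 46206 and 44943 with the COLCA2 guides (edgeR adjusted p = 0.00134 and 0.00521, lower).

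Levels between members were compared per kilobase of the longest annotated transcript (577 to 1279 bases). In the non-targeting library the order was S100A10 (59.6 normalized counts per kilobase), S100A6 (51.1), S100A9 (46.3), S100A2 (44.0), S100A16 (11.7), S100A8 (10.7), S100A14 (3.92) and S100P (1.49), with S100A4 and S100A11 at 0. The first 4 rest on 28 to 75 reads each and lie close together. With the POU2F3 gRNA, S100A6 led at 506 per kilobase, followed by S100A9 (365), S100A2 (317) and S100A10 (311), of which the last pair was level. With the COLCA2 guides, S100A9 led at 1013 and 1247 per kilobase, and S100A10, behind S100A2 and S100A6 as well, had 509 and 576. Of the summed reads of the 10 members, S100A10 took 35.0% in the non-targeting library (exact interval 28.7 to 41.8). It took 25% with the POU2F3 gRNA and 18.7% and 18.5% with the COLCA2 guides. The share of S100A6 was 22.8% (20.8 to 24.8) with the POU2F3 gRNA and 15.8% (14.6 to 17.1) and 16.6% (15.3 to 17.9) with the COLCA2 guides. In the non-targeting library it was 16.8%, with an interval of 12.1 to 22.5 that overlapped all of these. S100A16 took 4.88% (3.92 to 5.98) with the POU2F3 gRNA and 9.30% (8.31 to 10.4) and 9.47% (8.48 to 10.5) with the COLCA2 guides, and its 6.54% in the non-targeting library (3.62 to 10.7) overlapped these too. These shares were computed after the values had been seen and have no replicate check.

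The POU2F3 gRNA and COLCA2 gRNA libraries can be compared without the non-targeting library. Of the 8 members, 6 were at least 2-fold lower with the POU2F3 gRNA than with each COLCA2 guide (0.924% of all genes) and 0 were at least 2-fold higher (0.442%). S100A6 and S100A10 were the exceptions. The median log2 ratio was -1.45 for the members and -0.0039 for all genes. S100A16 differed most: its level was 4.17 times (3.28 to 5.37) and 4.86 times (3.82 to 6.25) that of the POU2F3 gRNA library, and 31 of the 14940 genes had a lower log2 ratio than its -2.16. For S100A9 the COLCA2 libraries were 2.78 times (2.39 to 3.23) and 3.42 times (2.94 to 3.97) the POU2F3 gRNA library, and for S100A2 2.56 times (2.26 to 2.90) and 2.81 times (2.48 to 3.18). S100A14 was 2.84 times (2.15 to 3.78) and 2.99 times (2.26 to 3.998), S100A8 2.30 times (1.82 to 2.91) and 2.37 times (1.87 to 3.02), and S100P 2.82 times (1.46 to 5.73) and 3.10 times (1.60 to 6.31). S100A10 was 1.63 times (1.44 to 1.85) and 1.85 times (1.63 to 2.10), and S100A6 1.52 times (1.33 to 1.74) and 1.83 times (1.60 to 2.08). The intervals of S100A4 (1.41, 0.646 to 3.12, with COLCA2 gRNA 1) and S100A11 (2.47, 0.354 to 27.3) held 1, so no difference was detectable at this depth.

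By edgeR's test, 3 members passed the adjusted threshold of 0.05 as lower with the POU2F3 gRNA (0.234% of all genes): S100A2 (adjusted p = 0.0267), S100A9 (0.0373) and S100A16 (0.0373). S100A14 (0.122), S100A10 (0.129), S100A8 (0.158), S100A6 (0.188) and S100P (0.285) did not pass. DESeq2 also called 3, the same genes. The test borrows the spread of the COLCA2 guides for a single POU2F3 gRNA library, so it compares these libraries and not the conditions.

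**Figure D3:**
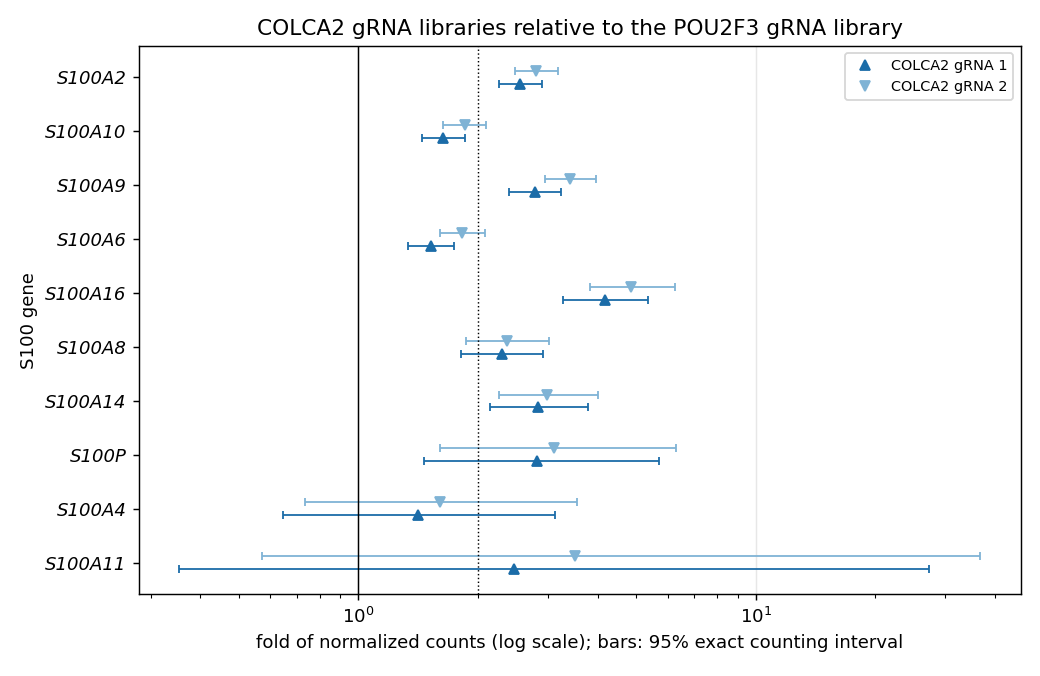
Fold of each COLCA2 gRNA library over the POU2F3 gRNA library for each S100 gene (log scale), with 95% exact counting intervals; the dotted line is 2-fold. S100A16 lies farthest to the right of the well-counted genes at 4.17 and 4.86, and S100A10 and S100A6 lie left of the 2-fold line.

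The COLCA2 guides gave similar S100 levels. Of the 8 members, 0 were 2-fold apart between the guides (2.22% of all genes), and the median log2 ratio of guide 2 to guide 1 was 0.16, where that of all genes was 0.0045. Guide 2 was the higher in 8 of 8 (51.1% of all genes), and the counting interval of its ratio excluded 1 in 3: S100A9 (1.23, 1.10 to 1.38), S100A6 (1.20, 1.06 to 1.36) and S100A10 (1.13, 1.01 to 1.27). POU2F3 itself was lower with guide 2 than with guide 1, at 2351 and 3677; its part in this was not tested. The order of non-targeting, then POU2F3 gRNA, then both COLCA2 guides held in 8 of 8 members and in 15.9% of all genes. POU2F3 transcripts were highest in the non-targeting library and lowest in the POU2F3 gRNA library. Their part in the S100 order was not tested.

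Other S100 genes behaved unevenly. Of 11, 3 passed the minimum. In both comparisons with the non-targeting library 2 of these were at least 2-fold higher (6.73% and 5.79% of all genes) and 0 lower (3.05% and 2.02%). S100A13, a protein of the FGF1 release pathway, had 186 in the non-targeting library, 401 with the POU2F3 gRNA, and 492 and 487 with the COLCA2 guides (log2 ratios of 1.10, 1.40 and 1.38; edgeR adjusted p = 0.0105 and 0.00218). S100A3, a hair and cuticle protein whose gene lies inside that of S100A4, had 3.82 (4 reads), 29.4, 37.3 and 47.0 (edgeR adjusted p = 0.0400 and 0.0125). S100A1, the heart and muscle member, had 35.3, 26.0, 25.9 and 41.2, with log2 ratios of -0.43, -0.43 and 0.21. S100A7, or psoriasin, had at most 6 reads in any library, and S100A7A, S100A7L2, S100G and S100Z were listed at 0 in all. None of the 7 fused-type S100 genes of the same region (HRNR, FLG, FLG2, RPTN, CRNN, TCHH and TCHHL1), which build the cornified envelope of skin, passed the minimum; 0 of 7 could be called.

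Genes that are not S100 genes were also read around the chromosome 1 members. The members there span chr1:151982915-153616986 (GRCh38), 1634072 bp, and within that span and 500 kb to each side 23 genes that are not S100 genes passed the minimum, 1 of them within the span. Of the 23, 0 were at least 2-fold higher in either comparison (6.73% and 5.79% of all genes) and 1 was lower in both (3.05% and 2.02%), counts near the shares over all genes. The lower gene was the 1 within the span, SPRR2A, a cornified envelope precursor, at 106 in the non-targeting library, 25.2 with the POU2F3 gRNA, and 42.5 and 22.3 with the COLCA2 guides. Their median log2 ratio was -0.12 with the POU2F3 gRNA and 0.020 with the COLCA2 guides. TUFT1 had the highest of these ratios, 0.94 with the POU2F3 gRNA and 0.98 and 1.26 with the COLCA2 guides. CHTOP, the first gene after S100A1, had 4363 in the non-targeting library and 3888 to 3981 in the others.

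**Figure D4:**
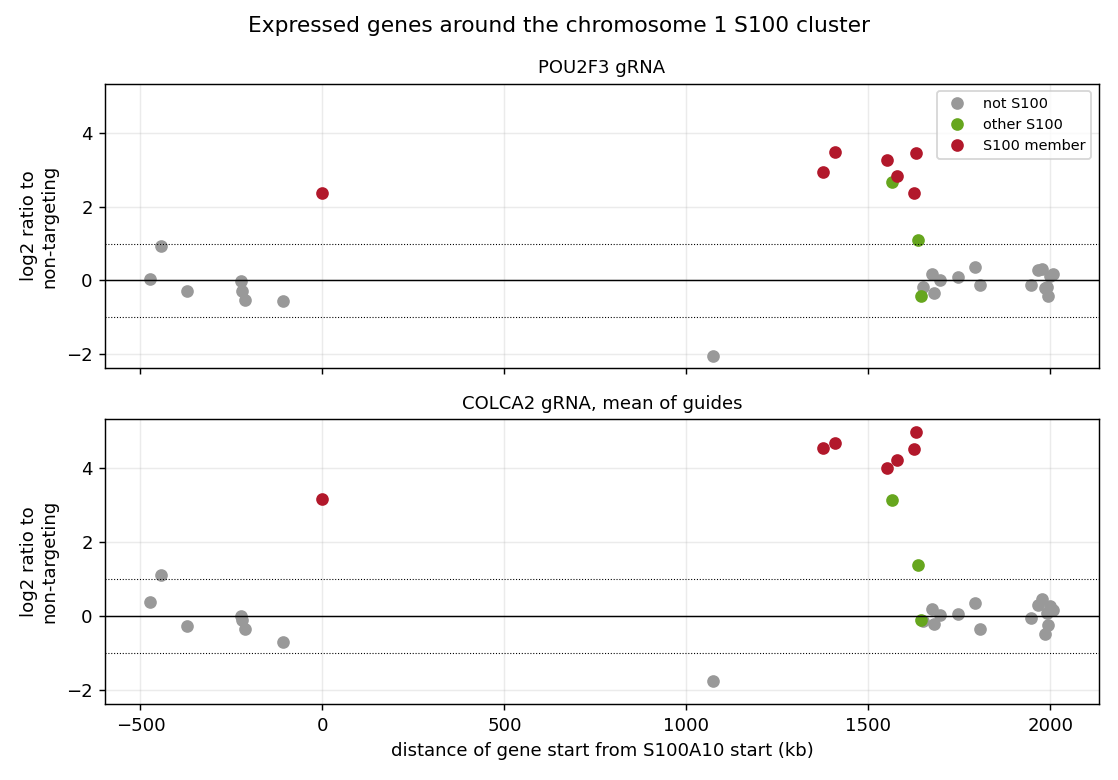
Log2 ratio to the non-targeting library of each gene past the expression minimum around the chromosome 1 S100 cluster, against the distance of its annotated start coordinate from that of S100A10 in kb. The S100 members (red) lie at 2.37 and above in the upper panel (POU2F3 gRNA) and at 3.17 and above in the lower one (mean of the COLCA2 guides), while genes that are not S100 genes (grey) lie near 0 apart from SPRR2A, and TUFT1 near 1.

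The proteins that S100 members act on were read next. Of 5 receptors for released S100 proteins, 4 passed the minimum. In each comparison 1 was at least 2-fold higher (6.73% and 5.79% of all genes) and 0 were lower (3.05% and 2.02%). CD36, a scavenger receptor that binds calprotectin with its lipid cargo, was at least 2-fold higher in both comparisons: it had 87.9 in the non-targeting library, 232 with the POU2F3 gRNA, and 394 and 549 with the COLCA2 guides (edgeR adjusted p = 0.0268 and 0.00159). AGER, the receptor for advanced glycation end products, had 138 in the non-targeting library and 98.5 to 133 in the others. BSG (basigin) had log2 ratios of 0.20, 0.33 and 0.24, and ALCAM had 0.28, 0.22 and 0.44. TLR4 had 2 to 20 reads and did not pass the minimum.

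Of 21 binding partners, 19 passed the minimum. In each comparison 6 were at least 2-fold higher (6.73% and 5.79% of all genes) and 1 was lower (3.05% and 2.02%). AHNAK, ANXA2, MYH9 and ANXA6 were among those higher in both. MYH9, the myosin heavy chain that S100A4 binds, had 13500 in the non-targeting library, 37410 with the POU2F3 gRNA, and 44974 and 43979 with the COLCA2 guides (edgeR adjusted p = 0.00018 and 5.7e-05). ANXA6, which S100A6 can bind, had 225, 474, 499 and 588. CYBB, the membrane subunit of the phagocyte NADPH oxidase, was the lower gene in both, at 75.4, 21.8, 31.1 and 35.3 (edgeR adjusted p = 0.062 and 0.0859). PLAT was counted as higher with the POU2F3 gRNA alone (log2 ratio 1.25, but -0.66 and 1.82 with the COLCA2 guides). TRPV6, a channel that S100A10 carries, was so with the COLCA2 guides alone (1.498 and 1.20, but 0.25 with the POU2F3 gRNA). Both rest on few reads: PLAT had 16 in the non-targeting library, 45 with the POU2F3 gRNA, and 9 and 48 with the COLCA2 guides. TRPV6 had 22, 30, 59 and 42 reads in the same order. EZR, the S100P partner ezrin, had 0.63, 0.89 and 0.94, under 2-fold, and S100PBP had 0.099, -0.33 and -0.20. The medians of the 19 were 0.26 with the POU2F3 gRNA and 0.45 with the COLCA2 guides.

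**Figure D5:**
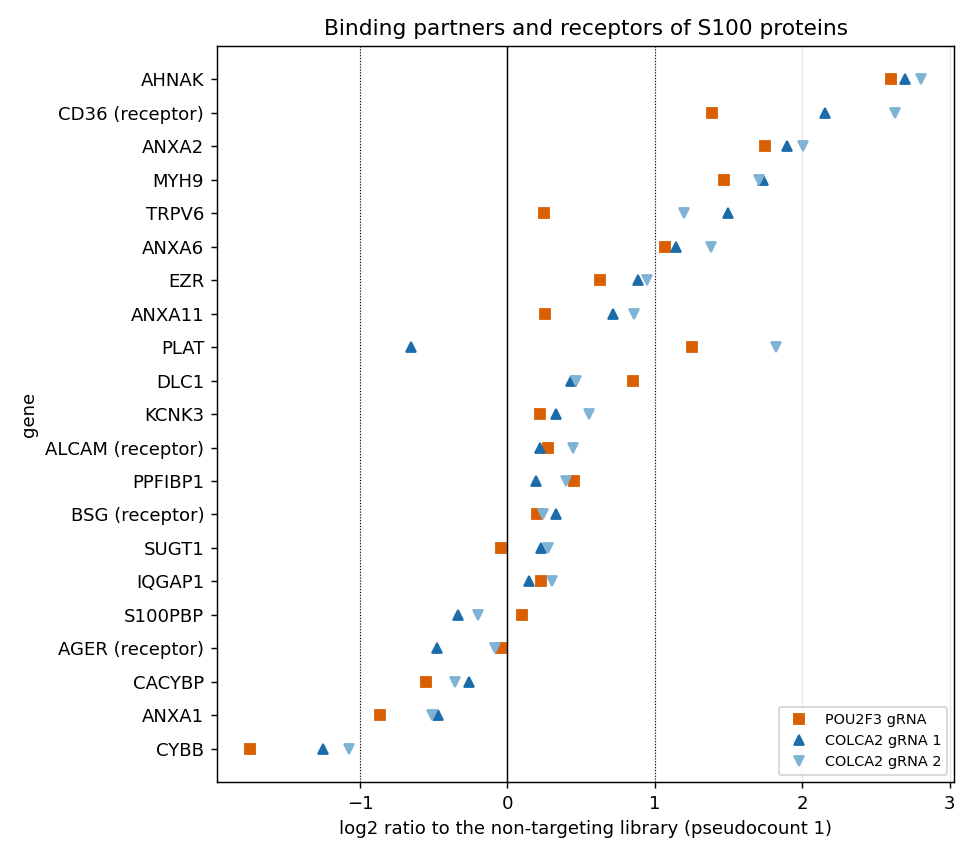
Log2 ratio to the non-targeting library (pseudocount 1) of S100 binding partners and receptors past the expression minimum, without those not reported here, 1 symbol per library; dotted lines are 2-fold. AHNAK, CD36, ANXA2, MYH9 and ANXA6 lie right of the upper line in all 3 libraries, CYBB lies left of the lower line, and PLAT is on both sides of 0.

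Genes of EF-hand proteins outside the S100 family were mostly within 2-fold of the non-targeting library. Of 25, 21 passed the minimum, and in each comparison 1 was at least 2-fold higher and 0 lower, near the shares over all genes (6.73% and 5.79% higher). That gene was CALML5, the calmodulin-like protein of differentiating keratinocytes, at 8.59 (9 reads) in the non-targeting library, 33.6 with the POU2F3 gRNA, and 97.5 and 126 with the COLCA2 guides (edgeR adjusted p = 0.0697 and 0.00349). It was also the 1 gene of the list that was lower with the POU2F3 gRNA than with both COLCA2 guides, at log2 ratios of -1.51 and -1.88. Of the calmodulin genes, CALM2 had log2 ratios of -0.039, 0.094 and 0.054, and CALM3 had -0.39, -0.18 and -0.42. The median of the 21 was 0.077 with the POU2F3 gRNA and 0.18 with the COLCA2 guides.

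Most markers of basal or squamous epithelium were also higher than in the non-targeting library, though not all of them with the POU2F3 gRNA. Of 8 (TP63, KRT5, KRT14, KRT6A, KRT13, IVL, DSG3 and SPRR1B), 6 passed the minimum. Of these, 5 were at least 2-fold higher with the POU2F3 gRNA (6.73% of all genes) and 6 with both COLCA2 guides (5.79% of all genes). DSG3 was under 2-fold with the POU2F3 gRNA, at a log2 ratio of 0.39, and had 1.31 and 1.48 with the COLCA2 guides. SPRR1B, under the minimum, was lower with the POU2F3 gRNA: it had 5.73 (6 reads) in the non-targeting library, 1.68 (2 reads), 16.6 and 21.2. The 8 summed to 250 normalized counts in the non-targeting library, 2964 with the POU2F3 gRNA, and 5212 and 6075 with the COLCA2 guides. None of the 8 was at 0 in any library. KRT5, the basal keratin, had 95.5, 1024, 3558 and 4079. KRT6A had 29.6, 132, 534 and 646, and was lower with the POU2F3 gRNA than with both COLCA2 guides, as was KRT5. KRT14 and KRT13 were instead highest with the POU2F3 gRNA. KRT14 had 4.77 (5 reads), 99.0, 52.9 and 85.9, and KRT13 had 23.9 in the non-targeting library, 1475 with the POU2F3 gRNA, and 720 and 815 with the COLCA2 guides. Tuft markers were lower: of 10, 7 passed, among them POU2F3, the gene targeted by 1 of the guides. At least 2-fold lower were 7 with the POU2F3 gRNA (3.05% of all genes) and 6 with the COLCA2 guides (2.02% of all genes). Both counts include POU2F3. Of 6 neuroendocrine markers 3 passed, and 1, INSM1, was lower in each comparison (3.05% and 2.02% of all genes). Of 5 fibroblast markers 4 passed, and LUM and PDGFRB were higher in each comparison (6.73% and 5.79% of all genes). LUM had 14.3 (15 reads) in the non-targeting library, 123 with the POU2F3 gRNA, and 233 and 201 with the COLCA2 guides. It passed the minimum only through these other libraries. PDGFRB had 22.9 (24 reads), 79.7, 187 and 120. The summed level of the list, mostly COL1A1, was 1219, 1267, 1664 and 1409. The part of these cell type markers in the S100 levels was not tested.

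For each of the 8 members, the gene closest in pattern was found among 12003 genes with a mean of at least 100, as the one whose 3 log2 ratios to the non-targeting library differed least from the member's at the largest of the 3 differences. These ratios share 1 control, so closeness is a description over 4 libraries. S100A9 was nearest to KRT75 (largest difference 0.12), S100A2 to TRIM29 (0.16), S100A6 to GLIPR1 (0.12), S100A10 to FGFBP1 (0.16) and S100P to ADAMTS9 (0.19). S100A8 was nearest to FXYD3 (0.21), S100A14 to KRT16 (0.26) and S100A16 to KRT6A (0.28). KRT16, an injury-type keratin, had 32.5 in the non-targeting library, 316 with the POU2F3 gRNA, and 888 and 906 with the COLCA2 guides. TRIM29, a basal cell gene, had 18.1, 133, 376 and 421.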

How the data were processed

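Poly(A) RNA of 4 NCI-H1048 libraries was sequenced. TRIzol extraction, DNase treatment and NEBNext Ultra II library preparation were used, per the labels' protocols. The submitters' processing notes name Salmon, DESeq2 and hg38 without roles or versions; annotation, strand use and filters are not given in the sources used here. Per the file headers, the deposited signal is a normalized count per gene on a linear scale. In each library 100% of the deposited values were whole multiples of 1 step (tolerance 0.001 reads), so reads were recovered by division by the step; the recovered factors (0.850 to 1.19) were within 0.0600% of recomputed DESeq2 median-ratio factors.

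The tables held 38145 rows. Rows of a symbol were summed, and the 14940 genes whose mean over all libraries reached 20 were compared as log2 ratios with a pseudocount of 1. Calls were made at 2-fold, in both guides for COLCA2, with no test, because 2 of the 3 groups held 1 library. Separate cultures are not named, so any p-value measures only the spread between these libraries. edgeR 4.0.16 (quasi-likelihood, 3 groups, 1 residual degree of freedom from the COLCA2 guides, Benjamini-Hochberg adjustment) and DESeq2 1.42.0 were alternatives on the recovered reads, run in R 4.3.3. The edgeR test called 1263 genes higher and 595 lower for POU2F3, and 1709 and 1122 for COLCA2. Counting intervals for folds and shares are 95% exact (Clopper-Pearson). A count of 0 was set against 3 reads. Scripts were tested on simulated data.

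The members and all lists (other S100 genes, fused-type genes, receptors, partners, other EF-hand genes, and tuft, neuroendocrine, basal or squamous, myeloid and fibroblast markers) were chosen with earlier results of these data known. Named genes are all members, both targets, list genes past the minimum, neighbours within 500 kb and the most alike gene of each member; other list genes named were picked after their values had been seen, and some list genes are not reported here. GENCODE release 29 (GRCh38) gave the positions of all 10 members. Promoter windows come from RefSeq and were found for all 10.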

Additional observations from a re-analysis of the deposited data

How the results depend on the processing

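Under 3 other scalings, pseudocounts of 0.1 and 10, other expression minimums, rows of a symbol kept apart and each guide left out, no member reversed its direction, and the counts of members higher or lower against the non-targeting library stayed within 1.5 times of those reported. A pseudocount of 10 moved the medians to 2.43 (POU2F3), 3.71 (COLCA2) and -1.27 (POU2F3 against COLCA2). With no expression minimum the medians were 4.23 (COLCA2) and -1.32 (POU2F3 against COLCA2), and with a minimum of 100 the COLCA2 median was 4.52. The 6 members lower with the POU2F3 gRNA than with the COLCA2 guides became 1 at a 4-fold threshold, 3 by edgeR and 3 by DESeq2. The settings that leave out a guide cannot move a ratio by more than the SD of the guides and were set aside. Of the other 180 member ratios, 141 stayed within this SD and 39 moved, 25 of them at a pseudocount of 10. Of the 141, 30 with rows of a symbol kept apart could not change, because each member had 1 row. Another 30 used recomputed median-ratio factors within 0.0600% of those recovered, so they could hardly change. The SD of the COLCA2 guides does not measure the spread of the POU2F3 gRNA or non-targeting library. Over all genes, the 2-fold rule called 865 higher with COLCA2 against 1709 by edgeR, and 138 lower with POU2F3 than with COLCA2 against 35. Of the scalings, equal totals shifted the all-gene median most, by -0.069 for COLCA2. No paired analysis was possible because only the COLCA2 group has a second replicate. The 214 reads of the 10 members in the non-targeting library limit every fold of a member against it. S100A4 and S100A11 had 0 there, and S100P, S100A14 and S100A8 had 2, 5 and 8.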
